A study of Mus musculus with 374 samples.

Results

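Assays 64, 65 and 67 are 3 of the 81 quantitative PCR assays measured in single cells of the mouse embryonic heart. They were chosen on their detection in these same cells, where an earlier description had joined them as a set found together in a minority of cells. The co-detection values below therefore describe the choice and are not tested. The table numbers the assays and pairs no number with a gene, so the transcripts are unnamed here and nothing is said of their function.

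The cells came from hearts at embryonic day 10.5 of embryos with the genotype Nkx2-5Cre/+;ROSA26mTmG/+, and only GFP-positive cells were sorted. The reporter gives a cell and its descendants membrane GFP once Cre has acted, so the sort kept cells with a history of Cre from the Nkx2-5 locus, which may no longer express Nkx2-5. Every cell shares this genotype and gate, and no control genotype enters. Hearts were dissected into 9 zones, but 0 of the 374 column names match a sample title. Columns were not given to zones by their order, and detection by zone was not analysed here.

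The heart tube at this stage holds contracting muscle cells of the atria and ventricles, an inner endocardial lining, an outer epicardial layer and mesenchymal cells of the cushions. Cells of the Nkx2-5 lineage include heart muscle and at least part of the endocardium. A panel of assays read in the same cell can separate such types by which transcripts occur together. Without gene names, no cell type can be given to the cells described here.

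The threshold cycle (Ct) is the PCR cycle at which product crosses a detection threshold, and a lower Ct means more template. A reaction counted as detected at a Ct of 28 or less. The 334 columns with at least 10 assays detected were kept and 40 were not, with 4 columns at 9 assays and 2 at 10 on either side of that minimum. All kept cells were treated as 1 sample, so there are no replicates and no p-values, and every 95% confidence interval (CI) of a share is the exact Clopper-Pearson one, which covers only the error of counting cells. Column numbers fall into 4 runs of 96, with 84, 79, 81 and 90 kept cells. The labels do not say whether a run is an array, an animal or a set of zones, and these cannot be told apart. The runs hold 95, 95, 89 and 95 of all columns. In their listed order, the titles first mix all zones and later come in blocks with only some zones. Runs may thus differ in zones, and the part of zone in any difference between runs was not tested.

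Each member was found in a minority of cells. Assay 67 was found in 69 of 334 cells (20.7%, CI 16.4 to 25.4%). Assay 64 was found in 57 cells (17.1%, CI 13.2 to 21.5%). Assay 65 was found in 47 cells (14.1%, CI 10.5 to 18.3%). The neighbouring shares in this order have overlapping intervals.

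In 84 cells at least 1 member was detected (25.1%, CI 20.6 to 30.2%), and in 250 cells none. All 3 were found in 35 cells (10.5%, CI 7.41 to 14.3%), exactly 2 in 19 cells (5.69%, CI 3.46 to 8.74%) and exactly 1 in 30 cells (8.98%, CI 6.14 to 12.6%). Over all cells the full trio was the most frequent of the 7 patterns with any member, but in run 2 assay 67 alone was (8 cells, against 6 with all 3). The next over all cells was assay 67 alone, in 18 cells (5.39%, CI 3.22 to 8.38%). Assays 64 and 67 without 65 made up 12 cells, assay 64 alone 7, assay 65 alone 5, assays 65 and 67 without 64 a further 4, and assays 64 and 65 without 67 the last 3. Assay 67 was the member most often detected alone over all cells and in runs 1, 2 and 4, whereas in run 3 it was alone in 0 cells and assays 64 and 65 in 2 each.

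The Ct values showed how strongly each member was read where it was found. Assay 64 ranged from Ct 14.98 to 27.42 with a median of 19.28 (quartiles 17.53 and 20.88). Assay 67 ranged from 13.37 to 27.85 with a median of 19.80 (quartiles 17.28 and 22.08). Assay 65 lay later and in a narrower band, from 20.38 to 26.96 with a median of 23.20 (quartiles 21.88 and 24.11). The earliest reading of assay 65 was later than the median of either other member. Assays can amplify with different efficiency, so a later Ct for one assay than for another is not a lower transcript level.

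The values on either side of the detection limit were as follows. The highest Ct counted as detected was 27.42 for assay 64, 26.96 for assay 65 and 27.85 for assay 67. The lowest Ct beyond the limit was 28.14, 30.94 and 31.90, respectively. In the 40 cells left out, each member was found in 0, which at 3 counts still leaves room for 7.50%.

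Detection shares by run had the same 2 runs on the higher side for each member, as the plot of shares by run shows. Assay 64 was found in 23.8% of cells of run 1 (CI 15.2 to 34.3%), 12.7% of run 2, 8.64% of run 3 and 22.2% of run 4 (CI 14.1 to 32.2%). Assay 65 was found in 17.9%, 8.86%, 7.41% and 21.1%, and assay 67 in 29.8%, 19%, 7.41% and 25.6% of these runs. Runs 1 and 4 lay above runs 2 and 3 for each member. Only for assay 67 were the intervals apart, at 7.41% in run 3 (CI 2.77 to 15.4%) against 29.8% in run 1 (CI 20.3 to 40.7%) and 25.6% in run 4 (CI 16.9 to 35.8%). Over all 81 assays, 22 (27.2%) differed by at least 30 percentage points between their highest and lowest run. No member reached a share of 30% in any run, so none could differ by 30 points. The members are therefore not compared with the panel by this count. The ranges of the members were 15.2 points for assay 64, 13.7 for assay 65 and 22.4 for assay 67. Cells of run 3 also had fewer assays detected in all, a median of 31 against 40, 41 and 39.5 in runs 1, 2 and 4, and its part in the lower shares was not tested.

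**Figure D1:**
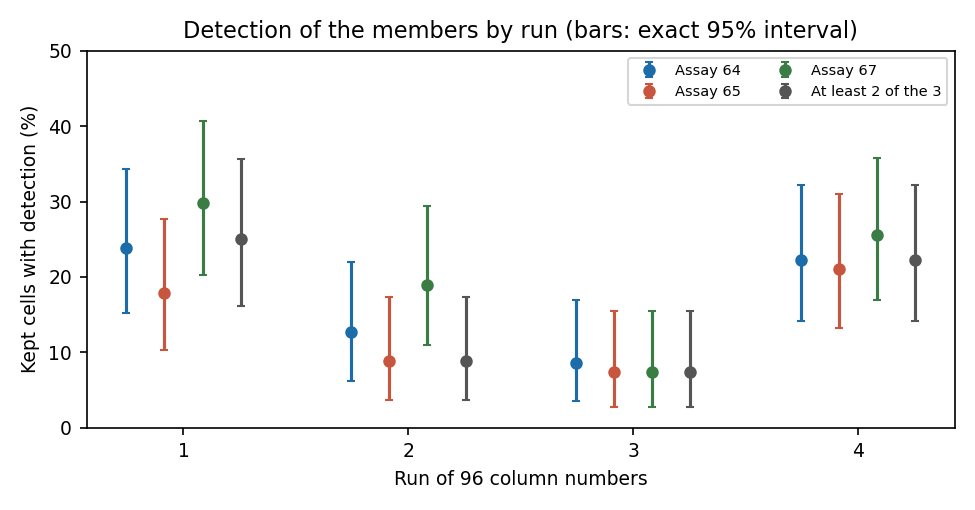
Share of kept cells (percent) with assay 64, 65 or 67, or at least 2 of them, detected in each run of 96 column numbers; points are shares and bars exact 95% intervals. The members are higher in runs 1 and 4 than in runs 2 and 3, and most intervals overlap.

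Ct values moved between runs differently for each member. Assay 64 had a median Ct of 20.92 in run 1 (20 cells), 18.93 in run 2 (10 cells), 18.71 in run 3 (7 cells) and 17.65 in run 4 (20 cells). Assay 65 had medians of 23.69 (15 cells), 23.46 (7 cells), 22.67 (6 cells) and 21.96 (19 cells) in these runs. Both were latest in run 1 and earliest in run 4. For assay 67 the medians were 20.29 (25 cells), 18.33 (15 cells), 16.42 (6 cells) and 20.11 (23 cells), and run 3 was earliest. Assay 94, the most widely detected assay of the panel, had medians of 14.21, 14.36, 13.97 and 13.76 in the 4 runs, a smaller movement than that of any member. Within each run the members' ranges were wide and overlapped with those of other runs, as for assay 64 in run 1 (15.85 to 27.42) and run 4 (15.28 to 22.39).

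**Figure D2:**
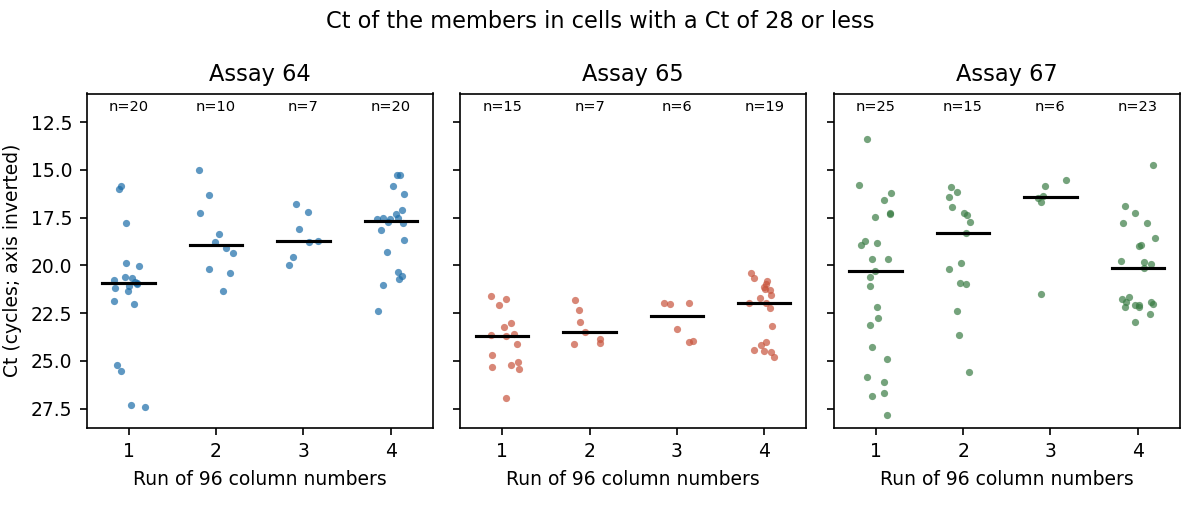
Ct in cycles (axis inverted, so stronger readings lie higher) of assays 64, 65 and 67 in each kept cell with detection, by run of 96 column numbers; points are cells and black lines medians. Assay 65 lies in a narrow late band, and assay 64 moves from a median of 20.92 in run 1 to 17.65 in run 4.

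The 3 pairs of members were not equally tight. Assay 64 was found in 38 of 47 cells with assay 65 (80.9%, CI 66.7 to 90.9%) and in 19 of 287 without it (6.62%, CI 4.03 to 10.1%). In the opposite direction, assay 65 was found in 38 of 57 cells with assay 64 (66.7%, CI 52.9 to 78.6%) and in 9 of 277 without it (3.25%, CI 1.5 to 6.08%). Assay 67 was found in 39 of 47 cells with assay 65 (83%, CI 69.2 to 92.4%), whereas assay 65 was found in 39 of 69 cells with assay 67 (56.5%, CI 44 to 68.4%). The smaller of the differences in both directions was 64.3 points for assays 64 and 67, 63.4 for assays 64 and 65 and 53.5 for assays 65 and 67. The rule that had joined them required 60 points, so the first pairs lie just inside it and the last outside. The pair of assays 67 and 92, at 55.8 points, came next below the rule and closer to it than assays 65 and 67.

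Cells with more assays detected can show any pair together more often, so the shares were also taken within 3 strata of the number of other assays detected. The strata held 116 cells with 10 to 33 of the other 78 assays, 120 cells with 34 to 42 and 98 cells with 43 to 62. Assay 67 was higher by 74.5, 75 and 72.6 points in cells with assay 64 than in cells without it, from the lowest stratum to the highest. Assay 64 was higher by 70.4, 50.7 and 65.1 points in cells with assay 67. Assay 65 was higher by 66.8, 75 and 35.7 points in cells with assay 64, the last from 5 of 14 against 0 of 84 cells. In the opposite direction, assay 64 was higher by 64.3, 97.3 and 90.3 points in cells with assay 65, which numbered 33, 9 and 5. In cells with assay 67, assay 65 was higher by 63.8, 47.4 and 31.25 points. In cells with assay 65, assay 67 was higher by 64.9, 91 and 88.2 points. The pair of assays 64 and 67 thus had a difference of over 50 points in each stratum and direction. That of assays 64 and 65 was under 50 points in 1 direction of the highest stratum. That of assays 65 and 67 was under 50 points in 1 direction of the middle and highest strata. Differences between strata were not tested. At least 2 members were found in 28.4% of cells in the lowest stratum (33 of 116, CI 20.5 to 37.6%). The share was 8.33% in the middle one (10 of 120) and 11.2% in the highest (11 of 98). The other assays include the 8-assay set described below, and cells without most of that set numbered 85, 14 and 0 in these strata. Among those cells the order was the opposite, with at least 2 members in 32 of 85 (37.6%) and 10 of 14 (71.4%).

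Within cells that held a pair, the order of the Ct values differed between runs for assays 64 and 67. Over the 47 cells with both, assay 67 minus assay 64 had a median of -0.94 cycles (quartiles -2.50 and 1.76, range -7.63 to 6.68). In run 1 this median was -2.11 cycles and assay 64 was the earlier in 4 of 19 cells. In run 2 the median was -2.01 (assay 64 earlier in 2 of 7 cells) and in run 3 -2.01 (0 of 5 cells). In run 4 it was 1.91 cycles, and assay 64 was the earlier in 13 of 16 cells. Runs 1 to 3 thus had assay 67 earlier in most cells and run 4 had assay 64 earlier in most. A minority of cells had the opposite order in runs 1, 2 and 4. A comparison of an assay pair within cells takes both Ct values from the same input. With unequal efficiency the difference can still change with the amount of input. It can also carry a shift of 1 assay between runs. The part of either was not tested.

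**Figure D3:**
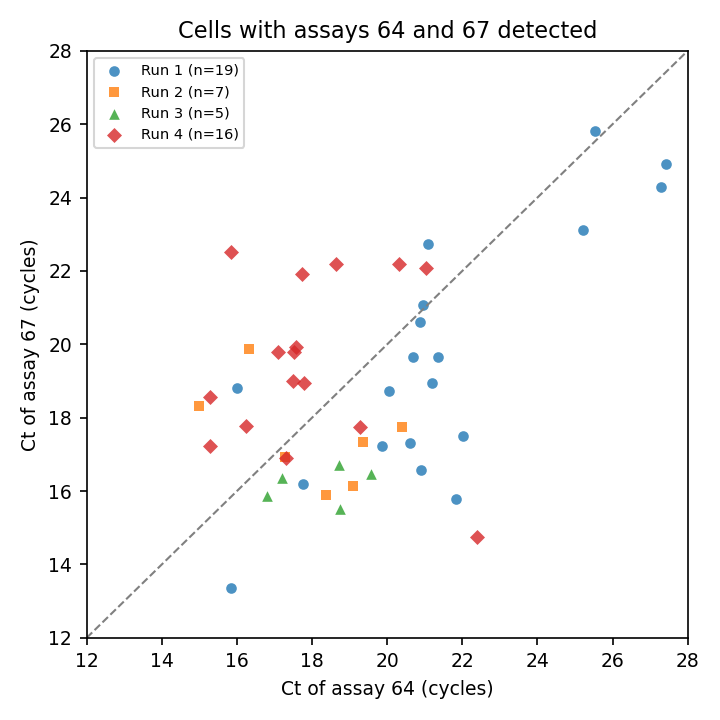
Ct of assay 67 against Ct of assay 64 (both in cycles) in the 47 cells with both detected, with run shown by colour and shape; the dashed line marks equal Ct. Most cells of runs 1 to 3 lie below the line and 13 of the 16 cells of run 4 above it.

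The relation between the Ct values of 2 members in the same cell varied between runs. Over cells and without adjustment for run, Pearson's r was 0.19 for assays 64 and 65 (38 cells), 0.49 for assays 64 and 67 (47 cells) and -0.16 for assays 65 and 67 (39 cells). The corresponding Spearman's rho was 0.24, 0.26 and -0.07. Within runs, assays 64 and 67 had an r of 0.79 and a rho of 0.66 in run 1 (19 cells), -0.50 and -0.36 in run 2 (7 cells) and -0.02 and 0.15 in run 4 (16 cells). Assays 65 and 67 had an r of 0.96 and a rho of 0.94 in run 2 (6 cells), against -0.16 and 0.10 in run 1 (13 cells) and -0.27 and -0.25 in run 4 (16 cells). The pooled values thus join runs that differ in size and sign. The cells share arrays and input differences, and the values are descriptions. For assays 64 and 67, r was 0.81 in the 12 cells that also held most assays of the 8-assay set described next. It was 0.02 in the other 35 cells. Of these, the 9 cells of run 1 had an r of 0.05 and a rho of 0.28. In the 35 cells with all 3 members, assay 65 was the latest in 30 and the earliest in 0, while assay 64 was the earliest in 16 and assay 67 in 19.

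The 8 assays 27, 53, 56, 57, 85, 86, 87 and 88 are the set found together in most kept cells. More than 4 of them were found in 205 of the 250 cells without a member (82%, CI 76.7 to 86.6%), in 18 of 30 cells with 1 member (60%, CI 40.6 to 77.3%), in 7 of 19 with 2 (36.8%, CI 16.3 to 61.6%) and in 5 of 35 with 3 (14.3%, CI 4.81 to 30.3%). Each class had a lower share than the one before. Intervals were apart only between cells without a member and those with 2 or 3, and between 1 and 3 members.

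The 54 cells with at least 2 members were split by this set into 42 without and 12 with it. The 42 cells had a median of 30.5 other assays detected (range 19 to 38) and the 12 cells a median of 53.5 (range 29 to 62), of which 10 lay in run 1. Assay 64 had a median Ct of 18.27 in its 40 cells without the 8-assay set and 21.20 in its 17 cells with it. For assay 67 the medians were 18.76 (44 cells) and 22.01 (25 cells), and for assay 65, 23.07 (42 cells) and 25.23 (5 cells). Each member was thus read later beside the 8-assay set. Assay 94 was detected in 10 of the 12 cells, at a median Ct of 13.91, and in all of the 42, at 15.31. The medians of assays 64 and 67 beside the set also cover cells with 1 member, so they are not over the same cells as those of assay 94. In run 1 alone, assay 64 was at a median Ct of 20.71 without the set and 21.60 with it (10 cells each), so the difference was smaller within that run, whereas assay 67 was at 18.80 (11 cells) and 22.64 (14 cells) and assay 65 at 23.60 (10 cells) and 25.23 (5 cells). Whether such wells held more than 1 cell was not tested.

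Assay 67 was also read later where it was the sole member. Cells with 1 member, whichever it was, more often held the 8-assay set (18 of 30) than cells with at least 2 (12 of 54). Of cells with assay 67, 25 held that set, and 12 of these had at least 2 members. The part of that set in the later Ct was not tested. The median Ct of assay 67 was 22.12 in the 18 cells where it stood alone (range 16.39 to 27.85). It was 18.80 in the 51 cells with another member (range 13.37 to 25.82). The order was the same in each run with such cells. The medians were 26.66 alone (5 cells) against 19.29 in run 1, 20.95 (8 cells) against 17.34 in run 2 and 22.01 (5 cells) against 19.79 in run 4. Assay 64 alone had a median of 19.97 (7 cells) against 19.19 (50 cells), and assay 65 alone a range of 23.31 to 25.31 (5 cells) against a median of 22.98 (42 cells), with overlapping ranges.

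The other 78 assays were compared between the 54 cells with at least 2 members and the 250 cells with none. A difference of at least 30 percentage points in detection share was called. By this rule 19 of the 78 assays (24.4%) were called, 8 higher and 11 lower, and the median difference over the 78 was -0.87 points. In 18 of the 19 the direction was the same in each run. Only 7 cells of run 2 and 6 of run 3 had at least 2 members, so a direction there rests on few cells. In run 3 assays 85 and 56 differed by only -7.98 and -7.75 points, less than 1 of these cells can shift a share. The exception was assay 1, with a difference of -32.3 points over all cells and 0 in run 4, where it was not detected. These cells are those on which the trio was chosen, so the differences are descriptions.

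Assay 19 was found in 52 of the 54 cells (96.3%, CI 87.3 to 99.5%) and in 54 of the 250 (21.6%, CI 16.7 to 27.2%), a difference of 74.7 points (Newcombe 95% CI 64.3 to 80.1). Assay 92 was found in 45 (83.3%, CI 70.7 to 92.1%) and 24 cells (9.60%, CI 6.25 to 13.9%), a difference of 73.7 points (CI 60.9 to 82). Its difference was between 68.5 and 90.1 points in each run. Both assays were also read earlier in the cells with members, at median Ct values of 17.08 and 21.69 for assay 19 and of 19.32 and 22.21 for assay 92. The next were assay 84 (92.6% against 34.8%), assay 40 (63% against 8.40%) and assay 68 (48.1% against 8.40%). Assays 32, 36 and 45 were higher by 37.2, 34.8 and 33.7 points. Assays 5 and 18, at 29.1 and 24.4 points, were the next with 1 direction in every run and lay under the call.

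**Figure D4:**
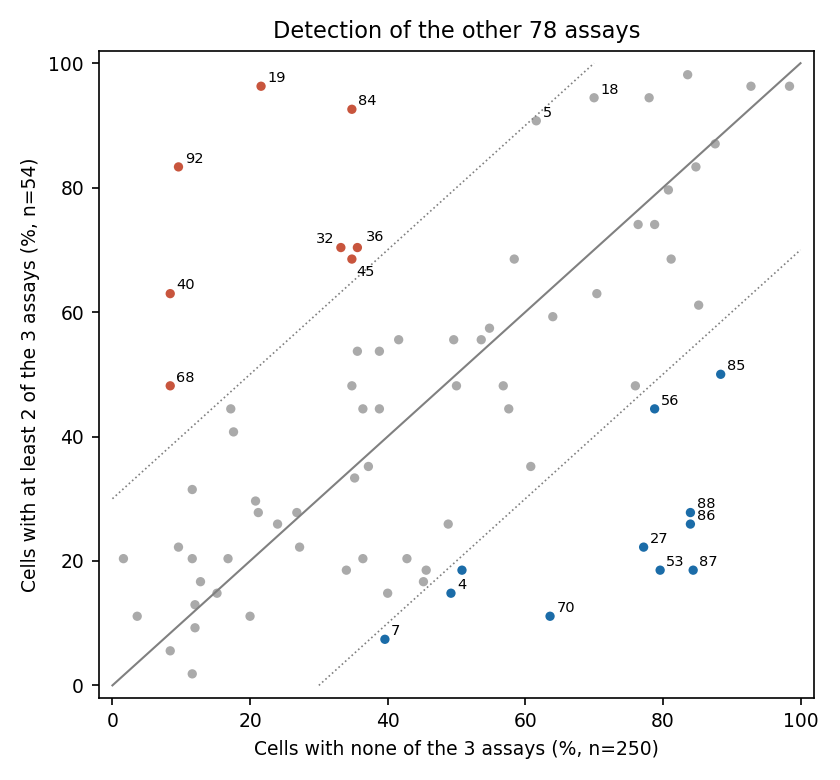
Detection share (percent) of each of the other 78 assays in cells with at least 2 of assays 64, 65 and 67 (54 cells) against cells with none (250 cells); each point is an assay, dotted lines mark 30 points, red and blue mark the 8 higher and 11 lower calls, and numbers mark the assays named by rule. Assays 19, 92, 84 and 40 stand farthest above the diagonal and 87, 53, 86 and 88 farthest below.

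On the lower side, assay 87 was found in 10 of the 54 cells (18.5%) and in 211 of the 250 (84.4%), a difference of -65.9 points (CI -74.9 to -52.6). The differences were -61.1, -58.1, -56.2 and -55 points for assays 53, 86, 88 and 27, and -38.4 and -34.4 points for assays 85 and 56. Of the 11 lower calls 7 belonged to the 8-assay set. Outside that set, assay 70 was found in 6 cells (11.1%) and 159 cells (63.6%), a difference of -52.5 points (CI -60.7 to -39.8), and assays 4 and 7 were at -34.4 and -32.2 points. The lower calls were smallest in run 1 for assays 87, 53, 86, 88 and 27, at between -44.9 and -33.1 points, and that run held 10 of the 12 cells with members and the 8-assay set.

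For each member the same 5 assays outside the trio had the highest phi coefficient, the correlation of detection over the 334 cells. The order was 92, 19, 40, 84 and 68 for all 3. Assay 92 had a phi of 0.57 with assay 64, 0.56 with assay 65 and 0.59 with assay 67, against 0.69 for assays 64 and 65, 0.69 for assays 64 and 67 and 0.62 for assays 65 and 67. Assay 19 followed at 0.48, 0.48 and 0.56, assay 40 at 0.45, 0.42 and 0.49, assay 84 at 0.41, 0.30 and 0.42, and assay 68 at 0.37, 0.29 and 0.37. The lowest phi of each member was with assay 87, at -0.46, -0.54 and -0.43. These coefficients also carry the number of assays detected in each cell and are descriptions.

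The shares of these assays also differed by the number of members in a cell. Assay 92 was found in 9.60% of cells with none, 33.3% with 1 (10 of 30, CI 17.3 to 52.8%), 63.2% with 2 (12 of 19, CI 38.4 to 83.7%) and 94.3% with 3 (33 of 35, CI 80.8 to 99.3%). Assay 19 went from 21.6% to 70%, 94.7% and 97.1%, so that cells with a single member already held it in most cases. Assay 84 went from 34.8% to 73.3%, 94.7% and 91.4%. Assay 68 was at 8.40% and 10% (CI 2.11 to 26.5%) in cells with none and 1 member and at 47.4% (CI 24.4 to 71.1%) and 48.6% with 2 and 3. For assays 19 and 84 the intervals of cells with none and with 1 member were apart, and those of 1 and 2 members overlapped. For assay 68 the intervals of neighbouring classes overlapped.

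**Figure D5:**
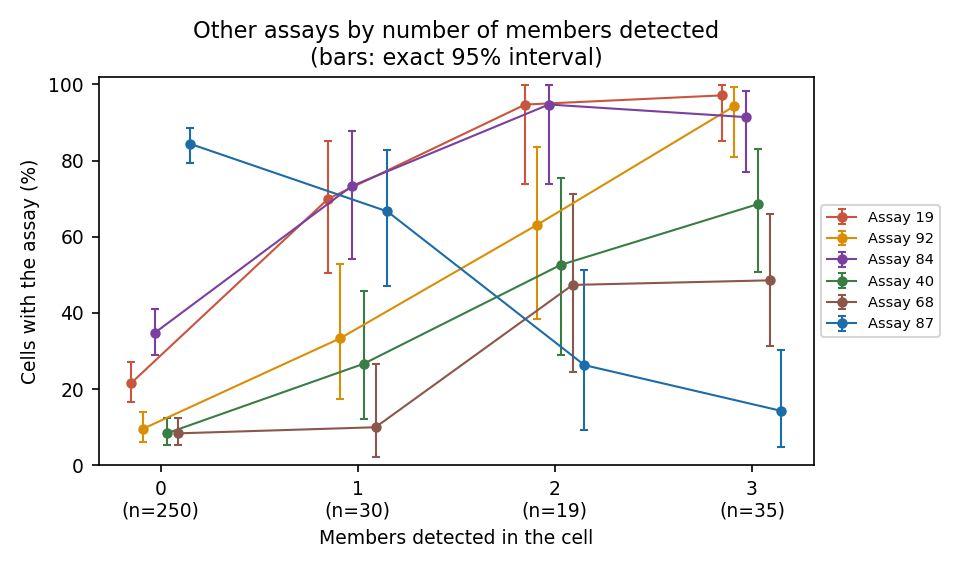
Share of kept cells (percent) with assay 19, 92, 84, 40, 68 or 87 detected, by the number of members detected in the cell (250, 30, 19 and 35 cells); points are shares, bars exact 95% intervals and lines join one assay. Assay 92 lies at 9.60% in cells with no member and 94.3% in cells with 3, while assay 87 lies at 84.4% and 14.3%.

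Seen from the other side, most cells with both assays 19 and 92 held at least 2 members, except in run 2. Among 59 such cells, at least 1 member was found in 53 (89.8%) and at least 2 in 44 (74.6%, CI 61.6 to 85%). By run the counts with at least 2 were 17 of 20, 6 of 12, 6 of 9 and 15 of 18. With assay 19 but not 92, at least 2 members were found in 8 of 68 cells (11.8%, CI 5.22 to 21.9%), with assay 92 but not 19 in 1 of 20 (5.00%) and with neither in 1 of 187 (0.535%, upper bound 2.94%). Thus 44 of the 54 cells with at least 2 members held both assays. Detection of assay 19 or 92 alone went with lower shares than detection of both.

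Of the 250 cells with no member, 205 held the 8-assay set. Among cells without that set, 42 with at least 2 members were set against 45 with none. By the same rule 23 of the 78 assays (29.5%) were then called, 18 higher and 5 lower. The 42 cells had a median of 30.5 other assays detected (range 19 to 38). For the 45 cells the median was 22 (range 10 to 35). The part of this gap in the higher calls was not tested. Of the 8 higher calls over all cells 7 were still called, the exception being assay 45, at 15.7 points. The split itself removes cells with most of the 8-assay set from both groups, so nothing is read from the 7 lower calls that belong to it. The other lower calls, assays 70, 4, 7 and 1, were at -6.67, -4.44, 0 and -17.5 points. Assay 92 was found in 38 of 42 cells (90.5%) and 1 of 45 (2.22%), assay 84 in 38 (90.5%) and 7 (15.6%), and assay 50 in 35 (83.3%) and 16 (35.6%). The 5 lower calls were assays 63, 90, 28, 89 and 91, at between -64.3 and -38.3 points, and 29 of the 45 cells held most of assays 63, 89 and 90.

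Assays 63, 89 and 90 form the other minority trio of the panel, and cells with at least 2 of these and under 2 of the members numbered 36. They were set against the 50 cells with at least 2 members and under 2 of the other trio. Leaving out the defining assays, 31 of 75 assays (41.3%) differed by at least 30 points. In the cells with assays 64, 65 and 67, 23 were higher and 8 lower. The 36 cells had a median of 24 other assays detected, against 32 in all 54 cells with at least 2 members. Both counts leave out assays 64, 65 and 67 but include 63, 89 and 90, so the measures are unlike for the 2 groups. The part of the gap between these medians was not tested. Assay 84 was found in 47 of 50 (94%) against 3 of 36 cells (8.33%), a difference of 85.7 points (CI 68.7 to 92.4), and assay 92 in 45 (90%) against 2 (5.56%), a difference of 84.4 points (CI 67.5 to 91.4). Assay 50 followed, in 44 (88%) against 5 (13.9%). Assay 19 differed less, in 49 (98%) against 23 cells (63.9%, CI 46.2 to 79.2%). Assay 28 was the farthest on the other side, in 7 (14%) against 31 cells (86.1%), a difference of -72.1 points (CI -82.6 to -53). Of the 8-assay set, assay 87 was at 18% and 5.56% and assay 53 at 14% and 2.78%, whereas assay 56 was at 42% and 2.78%.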

How the data were processed

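The authors deposited 1 table of Ct values, a score per reaction with no normalization, for 81 assays in 374 columns, in which the code 999 marks a reaction without a Ct. Per the labels' protocols, sorted single cells were lysed, reverse transcribed, pre-amplified and read on Fluidigm arrays; the software, its threshold and any filter: not given in the sources used here. No column duplicated another.

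Members and lists were chosen with earlier results of these data known. The rule for the members asked for zones by a key that pairs columns with samples by order; names alone were accepted as a match, so zones were left out. Assays named besides the members are those with the 10 largest differences each way and the same sign in every run, the 5 highest phi values per member, the compared sets, and assays 1, 28, 50, 91 and 94, which were picked after their values were seen, as were the split by the 8-assay set, the Ct comparisons within it and the split by assays 19 and 92. Alternatives were Ct limits of 24, 26 and none, with the kept cells held fixed, no minimum and a minimum of 20 assays, leaving out each run, strata, centring on the cell's other assays, and cells without the 8-assay set. The comparison script was tested on simulated data. Python 3.11.15, numpy 2.4.6, pandas 2.3.3, scipy 1.17.1 and matplotlib 3.10.9 were used.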

Additional observations from a re-analysis of the deposited data

Results flagged for a closer look

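Some readings of assays 64 and 65 lay beyond the detection limit. Their shares lay above the limit that a count of 0 allows in 334 cells (0.898%), but both intervals include that limit. Whether such late readings are specific was not tested. Assay 64 had a Ct above 28 in 6 kept cells (1.80%, interval 0.662 to 3.87%), of which 4 lay in run 1 and 3 held another member. Assay 65 had one in 7 kept cells (2.10%, interval 0.847 to 4.27%), of which 6 lay in run 1 and all 7 held another member. Assay 67 had one in 3 cells, at that limit, all in run 1 and 0 of them with another member.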

How the results depend on the processing

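Of 145 values under alternatives for 15 results, 135 stayed and 10 moved. Staying meant within the interval of the main value, or for the count of called assays within 1.5 times of it. That rule takes the count only, not which assays were called. No co-detection difference turned its direction. At a limit of Ct 24, assay 65 fell to 9.28% of cells, since its readings are late. In the 99 cells without the 8-assay set, chosen as an alternative after the data were seen, assays 64, 65 and 67 were detected in 40.4%, 42.4% and 44.4%, at least 2 members in 42.4% and all 3 in 30.3%. Within strata the difference of assay 64 by assay 65 was 83.8 points in place of 74.2. Centred on the mean Ct of the cell's other assays, the medians of assays 64, 65 and 67 were -0.95, 2.18 and -1.03 cycles, on another scale by construction. The 19 called assays numbered 26 at Ct 24 (18 shared) and 17 with every Ct (15 shared). Requiring all 3 members gave 25 (19 shared). With a run left out, they numbered 16 (without run 4, 14 shared) to 28 (without run 1, 19 shared). In cells without the 8-assay set 23 were called, but only 7 were shared. Assays 85 and 56 of that set, called lower over all cells, were there at 2.54 and 15.4 points. Leaving out a run gave shares of 14.8 to 19.8%, 11.5 to 16.2% and 17.6 to 24.9% for assays 64, 65 and 67, and 13.2 to 19% for at least 2 members. No paired analysis was possible because columns carry no replicate number and no test was made. Depth is limited by the number of cells, and animals are not named.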
